A study of Mus musculus with 25 samples.

Results

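Mouse livers taken 24 hr after concanavalin A (ConA) with vehicle were compared with livers of untreated mice, over all genes that could be tested. The members were taken from the labels: 5 livers labelled ConA with vehicle at 24 hr and 5 labelled untreated, which were 10 of the 25 livers measured, each on an array of its own. All 25 mice were labelled female C57BL/6NcrSlc, with no age given. The treated mice received ConA at 10 mg/kg and, after 15 min, vehicle into the peritoneum, and the liver was collected at 24 hr. The untreated mice were labelled unstimulated, and no group given vehicle alone was analysed here, so ConA, the injections and the vehicle cannot be told apart. The study also has livers at 3 hr after ConA with vehicle, used here only to time the 24 hr changes, and livers given BW245C, an agonist of the prostaglandin D2 receptor DP1, in place of vehicle. RNA came from whole liver tissue, and in such bulk samples fewer cells of a type and less RNA per cell cannot be told apart.

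ConA is a plant lectin that binds sugar chains on T cells and activates T cells and natural killer T cells in the liver, which makes it a common model of immune hepatitis. The activated cells release interferon-gamma and tumour necrosis factor, and these act on hepatocytes, sinusoidal endothelium and macrophages. Interferon-gamma induces GTPases, antigen presentation and chemokines, while tumour necrosis factor and interleukin-1 signal through NF-kappaB to chemokines and adhesion molecules. Injured and inflamed hepatocytes make acute phase proteins, lose many metabolic enzymes and can re-enter the cell cycle.

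A level is the log2 of a probe's processed signal less that of the array's 75th percentile, so a difference of 1 is a 2-fold change. Each gene was read by its brightest probe, and the test was limma over all 25 arrays, with genes called at adjusted p under 0.05. Of 2613 called genes with several probes, 218 had a probe called the other way. With the mean of a gene's probes in place of the brightest, 51 genes were called in the opposite direction. Between 52.8% and 61.6% of spots were well above background on each of the 10 arrays. A gene whose probe was not well above background on any array of a group has only a bound there. Its fold is given as at least that of the bright group over each array's dimmest signal above background, or the probe's own if higher. Such a bound holds for the processed signal only. With normexp background correction (offset 50), log2 changes of Bub1, Arg2 and Areg were 0.57, 1.29 and 1.53, below their bounds. No slide held arrays of both groups, so a fit that blocked on the slide linked them only through arrays of the other groups. That fit called 7701 genes, against 10406 in the fit without slide. Both fits called 6745 genes in the same direction and 35 in opposite directions. All 7 hepatocyte markers were well above background on all 10 arrays, while 2 fat markers (Adipoq and Plin1) and the pancreas marker Prss2 were not above it on any. In the library labelled ConA with vehicle at 24 hr, replicate 2, Xist went against the female label while Y-linked genes did not. Xist, the RNA of the inactive X chromosome, read -5.42 on that array and 0.59, 0.99, 0.90 and 0.49 in the other 4 ConA livers, against 1.02 to 1.39 in the untreated livers. The Y-linked genes Ddx3y, Eif2s3y, Kdm5d and Uty were not well above background on that array. The cause of the low Xist signal on that array was not tested. Of X-linked genes known to escape inactivation, Ddx3x, Eif2s3x, Kdm5c and Kdm6a were also lowest there among the ConA livers by each of their probes, as Kdm6a at -1.96 against -1.32 to -0.93, while X-linked Utp14a was not. Without that library, 9988 genes were called, 4308 higher and 5680 lower.

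In all, 10406 of 15104 genes tested (68.9%) differed between the groups, 4495 (29.8%) higher and 5911 (39.1%) lower after ConA. The change was at least 2-fold in 2080 higher genes (13.8%) and 2257 lower genes (14.9%). It was at least 10-fold in 294 higher and 146 lower genes. The median over all genes tested was a log2 change of -0.08. With the authors' series matrix values, which shift that median by 0.34, 7249 genes were higher and 3783 lower. The levels of the 2 groups did not overlap in 9669 genes (64.0%). Since so many genes differed, the count of each gene group below is read against these shares, and a median, where given, against that of all genes. Medians take fitted values, and where members were not well above background in 1 group, the median with these members at their bound (or at 0 where none could be given) follows if it differs.

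**Figure D1:**
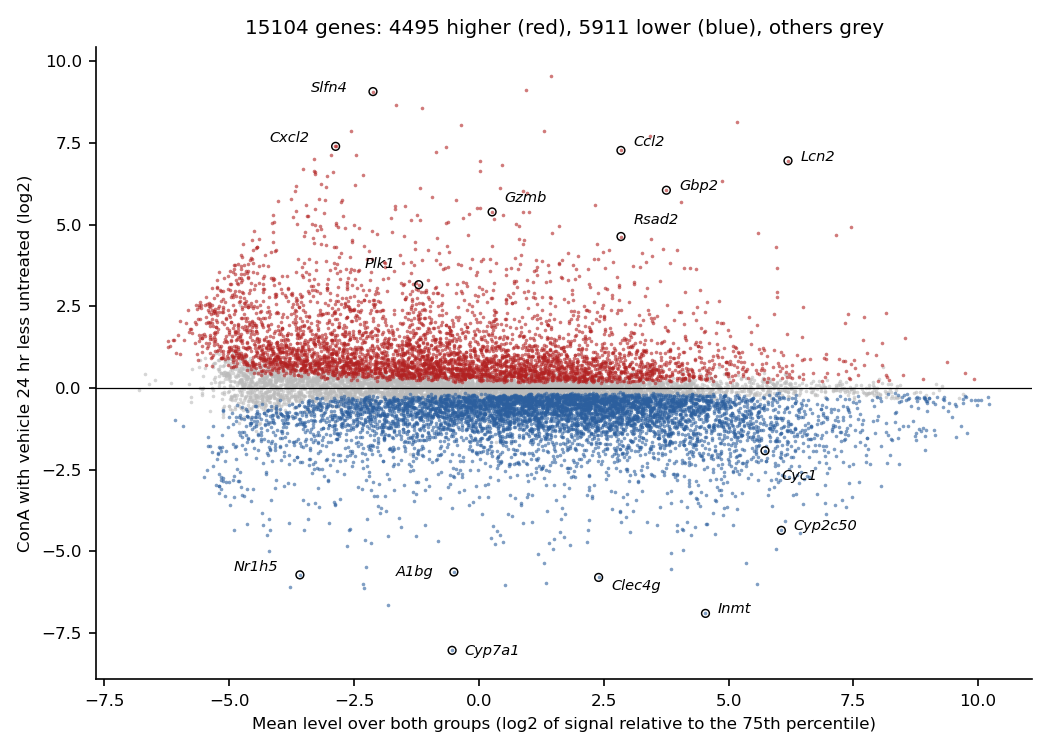
Log2 difference between ConA with vehicle at 24 hr and untreated livers (y axis) against the mean level over both groups (x axis, log2 units) for 15104 genes. Grey points were not called, coloured points were called at adjusted p under 0.05 (4495 higher, 5911 lower), and the labelled genes include Lcn2 at 6.95 and Inmt at -6.90. Genes not well above background in 1 group, such as Slfn4 and Cxcl2, are plotted at their fitted value, though only a bound holds for them.

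The 12 largest increases included those of Slfn4, AA467197 and Cxcl2. Slfn4, a Schlafen gene of myeloid cells, was not well above background in any untreated liver and read 2.38, 3.03, 2.44, 2.47 and 1.75 in the ConA livers, at least 137-fold higher (adjusted p = 2.90e-14). AA467197, the mouse gene of the small protein NMES1, was at least 159-fold higher (adjusted p = 3.80e-14), and Cxcl2, a neutrophil chemokine, at least 45.7-fold (adjusted p = 1.75e-12). Neither was well above background in any untreated liver, and both were in every ConA liver.

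At the other end, Nr1h5, which encodes a nuclear receptor that binds lanosterol, was above background in all untreated livers and in none after ConA, at least 16.9-fold lower (adjusted p = 6.79e-12). Inmt, a methyltransferase of small amines, read 8.02, 8.21, 7.90, 7.80 and 8.02 in the untreated livers and 0.41, 1.16, 1.53, 1.16 and 1.17 in the ConA livers. The groups were separated by more than 5 log2 units in every liver, and the change was -6.90 ± 0.31 (adjusted p = 1.31e-14). Clec4g, a lectin of sinusoidal endothelium, read 5.45, 5.12, 5.31, 5.18 and 5.44 in the untreated livers and -0.50, -0.16, -0.24, -0.66 and -0.95 after ConA, 55.8-fold lower (adjusted p = 1.03e-14), again with no overlap. A1bg, a secreted protein of the liver with a female bias in mice, read 2.00, 1.97, 2.62, 2.47 and 2.53 in the untreated livers and -5.31, -5.53, -4.00, 1.84 and -3.59 in the ConA livers. Replicate 4 of the ConA livers read nearly the untreated level of A1bg. The change was -5.64 ± 1.03 (adjusted p = 4.31e-05), and -6.93 without replicate 4.

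Genes of interferon-induced GTPases, which assemble on vacuoles that hold microbes, rose as a whole group: 17 of 17 measured were higher and none lower, against 29.8% and 39.1% of all genes tested, with a median of 3.43. In each of the 5 ConA livers the median of the group lay 2.96 to 3.97 above the untreated mean. Gbp2 read 0.91, 0.65, 1.10, 0.37 and 0.63 in the untreated livers and 6.50, 7.14, 6.95, 6.88 and 6.44 after ConA, 66.4-fold higher (log2 6.05 ± 0.21, adjusted p = 2.91e-16). Gbp5, a guanylate-binding protein that promotes inflammasome assembly, rose 23.1-fold (adjusted p = 5.21e-13). Tgtp1 and Tgtp2, near-identical neighbours whose probes may read each other, rose 35.3-fold and 26.98-fold (adjusted p = 1.55e-16 and 1.55e-16). The group stood lower at 24 hr than at 3 hr: 15 of the 17 were called below the 3 hr livers, 2 above. Of all genes, 68.4% were called between those times, 33.2% above and 35.3% below.

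Promoter sequences of 4 of these genes, and of the antiviral gene Rsad2, are shown because the genes rose together and share a short element. The interferon-stimulated response element was searched as GAAA, any 2 bases and GAAA again, on both strands, in the 250 bases before the start, in RefSeq sequences of GRCm38.p6. It was found in 9 of the 10 interferon GTPase genes that had a promoter entry, against 3.44% of 12017 tested genes with an entry and 2.98% of all 32851 promoters. In each line below 100 bases are given 5′ to 3′ on the gene's strand, and the capitals mark the element.
Gbp2, chr3:142620563-142620662 (plus strand): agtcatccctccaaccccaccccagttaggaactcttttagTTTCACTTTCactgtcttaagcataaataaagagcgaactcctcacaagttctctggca
Gbp3, chr3:142559944-142560043 (plus strand): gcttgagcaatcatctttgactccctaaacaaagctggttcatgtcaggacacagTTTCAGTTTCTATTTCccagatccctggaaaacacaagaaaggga
Igtp, chr11:58199456-58199555 (plus strand): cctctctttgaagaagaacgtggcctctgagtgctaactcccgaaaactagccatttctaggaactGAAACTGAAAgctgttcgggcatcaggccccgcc
Tgtp1, chr11:48992254-48992353 (minus strand): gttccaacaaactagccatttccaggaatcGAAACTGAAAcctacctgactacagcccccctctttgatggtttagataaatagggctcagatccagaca
Rsad2, chr12:26456503-26456602 (minus strand): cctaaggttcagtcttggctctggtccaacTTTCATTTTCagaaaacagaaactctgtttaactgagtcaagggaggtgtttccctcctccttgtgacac

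The element lay between 34 and 120 bases before the start in these 5 promoters. In Gbp3 a pair of matches overlapped. Gbp3 rose 16.3-fold (adjusted p = 6.58e-15) and Igtp, a GTPase of the IRG family, 6.91-fold (adjusted p = 3.81e-14). Among antiviral effector genes, 10 of 22 with an entry held the element. The GAS element, TTCNNNGAA, was found in 6 of the 10 interferon GTPase genes, against 7.57% of tested genes with an entry. A match describes the letters only, and binding was not measured.

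Antiviral effector genes, which block virus entry, translation or release, all rose: 27 of 27 measured, with a median of 2.74, or 2.40 with bounds. Rsad2, the enzyme viperin, read 0.64, 0.37, 0.50, 0.75 and 0.38 in the untreated livers and 5.07, 4.58, 4.99, 6.14 and 5.03 after ConA. All 5 ConA livers were higher, by 24.8-fold (log2 4.63 ± 0.36, adjusted p = 8.62e-11). Ifit2, which binds foreign RNA, rose 30.9-fold (adjusted p = 5.81e-11), and Isg15, a ubiquitin-like modifier, 19.8-fold (adjusted p = 4.19e-14). Oasl2, an oligoadenylate synthetase relative, rose 18.6-fold (adjusted p = 1.62e-13). In contrast to the GTPases, 18 of the 27 were called above their 3 hr level and 3 below it. Rsad2 itself stood 2.31 above untreated at 3 hr and 4.63 at 24 hr, and the 24 hr livers exceeded the 3 hr livers by 2.32 (adjusted p = 4.67e-06).

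Of 7 Schlafen genes, regulators of RNA and growth in lymphoid and myeloid cells, 6 rose, Slfn3 by at least 27.5-fold (adjusted p = 3.57e-13) and Slfn2 by 8.16-fold (adjusted p = 5.11e-11). Of 45 TRIM genes, mostly ubiquitin ligases, 24 rose and 9 fell (4 with the series matrix values), with a median of 0.49, or 0.45 with bounds. The antiviral cluster members Trim30a and Trim30d rose 9.64-fold and 9.84-fold (adjusted p = 1.22e-11 and 3.40e-11). Trim24, a co-regulator of nuclear receptors in hepatocytes, was 2.69-fold lower (adjusted p = 2.58e-08).

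Genes for loading peptides on MHC class I rose in 14 of 18 and fell in 1, with a smaller median of 0.86. The peptide transporter subunit Tap1 read -0.12, -0.18, 0.03, -0.27 and -0.10 in the untreated livers and 2.72, 2.88, 2.74, 2.71 and 2.25 after ConA, 6.91-fold higher (adjusted p = 6.01e-13). The immunoproteasome subunits Psmb8 and Psmb9 rose 5.04-fold and 4.88-fold (adjusted p = 7.25e-12 and 1.04e-11). The class I heavy chain H2-K1, whose close copies its probe may also read, was not called, at 0.05 ± 0.08 (adjusted p = 0.598). Class II presentation genes rose in 7 of 14, with 4 higher when the slide was a block, 5 higher without replicate 2 and 11 higher with the authors' series matrix values. The co-stimulator Cd40 led them, 11.98-fold higher (adjusted p = 3.49e-11). The class II chain H2-Ab1 was not called, at 0.44 ± 0.24 (adjusted p = 0.107).

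Cytokine and cytokine receptor genes rose in 24 of 31 and fell in 2, with a median of 1.71, or 1.26 with the bounds of 11 members and 0.49 with normexp background correction. Natural blockers of interleukin-1 were among the largest. Il1r2, its decoy receptor, was not well above background in any untreated liver and at least 66.4-fold higher after ConA (adjusted p = 4.32e-13). Il1rn, the receptor antagonist, read -3.78, -3.71, -3.37, -4.50 and -4.01 in the untreated livers, above background in 3 of them, and 1.44, 1.40, 1.32, 1.90 and 1.00 after ConA. The groups did not overlap, and the change was 39.03-fold (adjusted p = 1.14e-14). Il18, which drives interferon-gamma release, was 2.84-fold lower (log2 -1.50 ± 0.12, adjusted p = 1.20e-10). Among genes that end cytokine signals, Socs1 rose 39.1-fold and Socs3 17.8-fold (adjusted p = 6.02e-15 and 5.48e-13), and their 24 hr levels less their 3 hr levels were -2.79 and -2.53 (adjusted p = 1.15e-10 and 1.93e-09).

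Chemokine genes rose in 25 of 31 and fell in 4, with a median of 2.21, or 1.60 with the bounds of 7 members and 1.39 with normexp. Ccl2, which recruits monocytes, read -0.37, -1.22, -0.49, -1.26 and -0.61 in the untreated livers and 6.86, 6.46, 6.22, 7.08 and 5.79 after ConA, 154-fold higher (adjusted p = 6.36e-14). Cxcl9, an interferon-gamma target that recruits T cells, read 1.76, 1.87, 2.21, 1.43 and 1.24 in the untreated livers and 7.96, 8.31, 7.97, 8.14 and 7.79 after ConA. All 5 ConA livers were higher, by 80.6-fold (log2 6.33 ± 0.20, adjusted p = 4.35e-17). Chemokines of the resting liver were among those that fell: Cxcl12, made by stromal and endothelial cells, was 2.94-fold lower (adjusted p = 4.97e-10) and Cxcl13, a B cell attractant, 6.20-fold lower (adjusted p = 1.74e-05). For the chemokines as a group, 19 of 31 stood below their 3 hr level and 5 above it, against 35.3% and 33.2% of all genes.

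The promoters of Cxcl1 and Cxcl2, neighbouring neutrophil chemokine genes, are shown because both hold a strict NF-kappaB site. The site was searched on both strands as GGAATTTCC, with or without a further G in front, or as GGGA followed directly by CTTTCC. It was found in 4 of 22 chemokine genes with an entry, against 0.641% of tested genes and 0.426% of all promoters. The capitals mark the site.
Cxcl1, chr5:90891144-90891243 (plus strand): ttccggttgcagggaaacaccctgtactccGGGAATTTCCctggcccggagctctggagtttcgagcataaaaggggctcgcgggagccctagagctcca
Cxcl2, chr5:90903772-90903871 (plus strand): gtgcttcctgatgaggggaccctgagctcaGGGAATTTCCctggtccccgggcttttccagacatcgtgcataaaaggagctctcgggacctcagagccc

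The same 10 bases stood 71 bases before the start of Cxcl1 and 97 before that of Cxcl2. Cxcl1 read -2.01, -2.14, -1.63, -2.62 and -2.21 in the untreated livers and 4.30, 3.25, 3.85, 4.20 and 3.92 after ConA, 65.2-fold higher (adjusted p = 2.39e-15). Both genes were lower at 24 hr than at 3 hr, with a log2 difference of -2.48 for Cxcl1 and -2.27 for Cxcl2 (adjusted p = 3.11e-09 and 0.000115).

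Immune checkpoint and co-stimulation genes rose in 12 of 17 and fell in 2, with a median of 1.61, or 1.54 with the bounds of 4 members and 0.54 with normexp. Cd274, the inhibitory ligand PD-L1, read -1.04, -0.74, -0.56, -1.28 and -0.89 in the untreated livers and 3.86, 4.35, 3.81, 3.96 and 3.22 after ConA, 26.8-fold higher (adjusted p = 2.78e-13). Tnfrsf18, the receptor GITR of activated and regulatory T cells, rose 14.1-fold (adjusted p = 4.99e-13). Il2ra, the high-affinity interleukin-2 receptor chain, rose 19.9-fold (adjusted p = 9.48e-12), and was above background in 1 untreated liver. Nt5e, the enzyme CD73 that makes adenosine, was 4.72-fold lower (adjusted p = 7.18e-11). At 24 hr 10 of the 17 genes stood above their 3 hr level and 3 below it, against 33.2% and 35.3% of all genes.

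Neutrophil genes were higher in 17 of 22 and lower in none, or lower in 2 in the slide-blocked fit. Their median was 4.42, or 3.86 with the bounds of 6 members and 1.84 with normexp. Lcn2, the iron-scavenging protein lipocalin-2, which injured hepatocytes also make, read 2.18, 3.00, 2.66, 2.94 and 2.79 in the untreated livers and 9.67, 9.51, 9.65, 9.66 and 9.84 after ConA. It rose 124-fold (log2 6.95 ± 0.17, adjusted p = 1.41e-18). Retnlg, a resistin-like peptide of neutrophils, read -4.40, -4.52, -3.96, -5.25 and -4.20 in the untreated livers, where it was above background in 1, and 3.07, 2.80, 2.48, 2.73 and 2.68 after ConA. It rose 149-fold (adjusted p = 9.32e-14). The log2 of the summed signal of 6 defining neutrophil markers was 0.76 to 2.73 in untreated and 7.28 to 8.09 in ConA livers. Of 13 S100 genes, a family of calcium-binding proteins, 8 were higher, or 5 in the slide-blocked fit, and 3 lower.

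T cell genes were higher in 17 of 20 and lower in 1, with a median of 2.64, or 1.42 with normexp. Cd3d, a chain of the T cell receptor complex, read -2.54, -3.00, -2.56, -2.57 and -2.67 in the untreated livers and 1.09, 0.93, 0.56, 0.26 and 0.34 after ConA, 9.86-fold higher (adjusted p = 5.26e-12). Cd2 and Cd28, an adhesion molecule and a co-stimulator, rose 8.52-fold and 7.81-fold (adjusted p = 5.91e-11 and 6.41e-13). Zap70, a kinase of T cell receptor signalling, was 2.27-fold lower by both of its probes (adjusted p = 6.29e-08). Of 6 defining T cell markers, 5 were tested, with 4 higher and none lower. The log2 of their summed signal, which the brightest markers dominate, was 5.15 to 6.22 in untreated and 5.22 to 6.02 in ConA livers, which overlap.

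Natural killer and cytotoxic genes rose in 15 of 16. Gzmb, the protease granzyme B, read -2.66, -2.89, -2.17, -2.55 and -1.87 in the untreated livers and 3.30, 3.17, 2.80, 2.83 and 2.68 after ConA, 41.9-fold higher (adjusted p = 2.96e-13). Gzma, granzyme A, rose 15.2-fold (adjusted p = 4.19e-13) and the transcription factor Tbx21 7.98-fold (adjusted p = 1.99e-12). B cell genes rose in 9 of 11 and fell in 2, or rose in 5 and fell in 1 in the slide-blocked fit. Ms4a1, the antigen CD20, rose 3.69-fold (adjusted p = 0.000139). Dendritic cell genes rose in 7 of 11 and fell in 1, or in 2 without ConA replicate 2. Cd3d, Gzmb and Ms4a1 exceeded their 3 hr levels by 2.38, 2.20 and 1.47 (adjusted p = 1.29e-09, 5.36e-07 and 0.00164).

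Genes of monocytes and macrophages moved in both directions. Of 23 measured, 11 rose and 7 fell, or 3 in the slide-blocked fit and 4 with the series matrix values. Chil3, a chitinase-like protein of recruited myeloid cells, read -2.83, -3.09, -2.39, -2.74 and -2.13 in the untreated livers and 3.67, 3.46, 3.27, 3.41 and 3.62 after ConA, 69.8-fold higher (adjusted p = 3.60e-13). Clec4d, a receptor of fungal sugars on myeloid cells, rose 57.1-fold (adjusted p = 4.04e-12) and Cd14, the co-receptor of lipopolysaccharide, 48.6-fold (adjusted p = 5.75e-14). Adgre1, the macrophage antigen F4/80, was 4.72-fold lower (adjusted p = 7.14e-08). Mrc1, the mannose receptor of resident macrophages and sinusoidal endothelium, was 9.55-fold lower (adjusted p = 1.94e-11).

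Kupffer cell genes, those of the liver's resident macrophages, fell in 10 of 18 and rose in 3. In the slide-blocked fit 6 fell. Clec4f, a lectin specific to Kupffer cells in mice, read 4.50, 3.85, 4.31, 4.21 and 4.24 in the untreated livers and 0.43, 0.48, 0.16, 1.13 and -1.34 after ConA. All 5 ConA livers were lower, by 16.6-fold (log2 -4.05 ± 0.36, adjusted p = 8.80e-10), though they spread over more than 2 log2 units. Vsig4, a complement receptor, was 24.8-fold lower (adjusted p = 1.50e-11), above background in 4 ConA livers. Marco, a scavenger receptor of the same cells, was not called, at 0.53 ± 0.41 (adjusted p = 0.246). The members that rose are genes that other cells also make: Hmox1, the haem oxygenase, 5.21-fold (adjusted p = 6.65e-11), Il18bp, which blocks interleukin-18, 6.16-fold (adjusted p = 1.71e-12), and Cdh5, an endothelial cadherin, 1.77-fold (adjusted p = 0.000790). Cdh5 did not keep its call in the slide-blocked fit (adjusted p = 0.0521).

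Sinusoidal endothelial genes fell in 22 of 28 and rose in 3. Oit3, a secreted protein of these cells, read 2.52, 2.31, 2.57, 2.56 and 2.53 in the untreated livers and -0.85, -1.71, -1.43, -0.91 and -1.85 after ConA, 14.4-fold lower (adjusted p = 5.27e-12). Wnt2, a signal from central vein endothelium that sustains hepatocyte zonation, was at least 2.26-fold lower (adjusted p = 3.44e-07) and not well above background in any ConA liver. The pan-endothelial gene Pecam1 was 1.55-fold higher (adjusted p = 0.00514). Kdr, a receptor of vascular endothelial growth factor, was not called by its brighter probe, at -0.15 ± 0.12 (adjusted p = 0.297), while a dimmer probe stood at -1.96.

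Stellate cells, the vitamin A stores of the liver, showed the same direction, 13 of 19 genes lower and 1 higher. Colec11, a collectin of quiescent stellate cells, read 4.55, 4.51, 4.51, 4.54 and 4.56 in the untreated livers and -0.23, 0.01, -0.45, 0.16 and -0.45 after ConA. The spread within each group was far smaller than the gap, 26.5-fold (log2 -4.73 ± 0.15, adjusted p = 4.35e-17). Lrat, which esterifies retinol, was 8.72-fold lower (adjusted p = 1.29e-10). The contractile gene Tagln rose 2.25-fold (adjusted p = 2.62e-07), and Pdgfrb was not called, at -0.10 ± 0.21 (adjusted p = 0.694). Of 14 cholangiocyte genes, those of bile ducts, 4 (28.6%) were higher and 3 (21.4%) lower, shares below those of all genes, and 8 were higher and 1 lower with the series matrix values. Sox9, a duct and progenitor factor, was 2.91-fold higher (adjusted p = 1.12e-08).

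**Figure D2:**
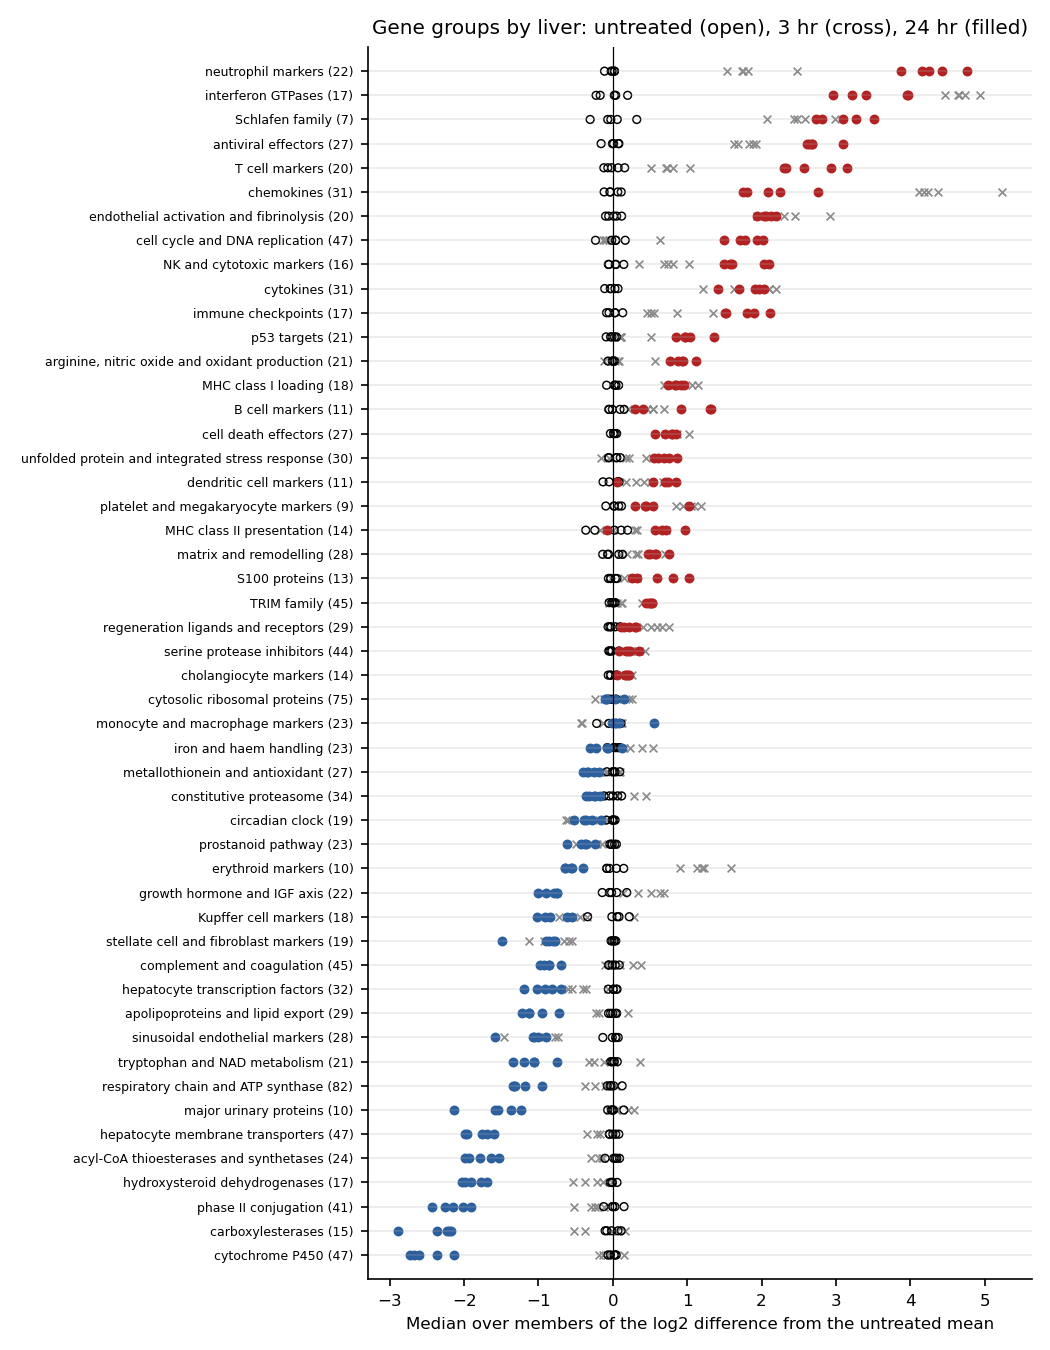
Median log2 difference from the untreated mean over the measured members of each gene group (x axis), 1 point per liver, for the 5 untreated (open), 5 ConA with vehicle 24 hr (filled) and 5 ConA with vehicle 3 hr (crosses) livers. Neutrophil and interferon GTPase genes lie farthest right at 24 hr. Farthest left are P450 genes, except in ConA replicates 1 and 5, where carboxylesterases lie farther left (-2.89 against -2.73, and -2.22 against -2.13).

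The log2 of the summed signal of 5 sinusoidal endothelial markers lay at 6.07 to 6.37 in untreated and 3.83 to 4.57 in ConA livers, with 4 lower and 1 higher. That of 5 stellate markers lay at 4.75 to 4.79 and 1.08 to 1.47, with 3 lower, and that of 5 Kupffer markers at 5.94 to 6.60 and 3.02 to 4.57, with 4 lower. For 7 hepatocyte markers, all lower, it lay at 12.01 to 12.28 and 11.19 to 11.62. For 5 natural killer markers it lay at 0.44 to 0.75 and 3.71 to 4.08, with 4 of 4 tested higher. The sums of 5 monocyte markers overlapped, at 8.57 to 9.13 and 8.47 to 8.92, with 3 markers higher and 1 lower. Those of 5 dendritic cell markers also overlapped, at 7.16 to 7.40 and 7.24 to 7.37, with 2 of 4 tested higher and none lower. Those of 4 B cell markers were -1.99 to -1.57 and -1.05 to 0.57, of 4 cholangiocyte markers 0.03 to 0.51 and 0.84 to 1.37, and of 4 platelet markers 0.22 to 0.53 and 0.68 to 1.498. None of the 10 arrays held the B cell marker Pax5 or the dendritic cell marker Xcr1 well above background. Those marker levels that moved did so between the same groups as every result given here, and their part in the other results was not tested.

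Erythroid genes fell in 5 and rose in 2 of 10, or rose in none in the slide-blocked fit and in 1 without ConA replicate 2 or 4 or untreated replicate 1, 2, 3 or 4. The median of the group was 1.26 at 3 hr and -0.60 at 24 hr, and 10 members were lower at 24 hr than at 3 hr. Alas2, the first enzyme of haem synthesis in red cells, was 2.74-fold lower than untreated (adjusted p = 8.46e-07) and stood 1.31 above it at 3 hr. The haemoglobin gene Hba-a1, which has a copy its probe may also read, was not called, at 0.01 ± 0.39 (adjusted p = 0.984). Of the platelet genes 5 of 9 rose and 1 fell. The number that rose was 2 in the slide-blocked fit and 3 without ConA replicate 4, without untreated replicate 3, with quantile normalization or with normexp. Itgb3, an integrin of platelets and activated endothelium, rose 3.67-fold (adjusted p = 8.85e-08).

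Genes of endothelial activation and clot breakdown rose in 16 of 20 and fell in 2, with a median of 2.12, or 1.79 with bounds and 1.18 with normexp. Plaur, the receptor of urokinase, read -2.73, -2.96, -2.57, -3.00 and -2.47 in the untreated livers and 2.87, 3.05, 2.66, 2.75 and 2.56 after ConA, 45.9-fold higher (adjusted p = 5.21e-13). Procr, the protein C receptor, rose 41.5-fold (adjusted p = 6.75e-13) and exceeded its 3 hr level by 2.97 (adjusted p = 1.14e-08). Angpt2, which destabilises vessels, rose 15.5-fold (adjusted p = 1.33e-08). Vwf, the von Willebrand factor, was 2.61-fold lower (adjusted p = 1.11e-06).

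Matrix remodelling genes rose in 15 of 28 and fell in 5, with 3 lower when the slide was a block and 2 with the series matrix values. Proteases and a protease inhibitor led. Timp1, an inhibitor of matrix metalloproteases, read -3.28, -3.17, -3.07, -3.93 and -3.77 in the untreated livers and 3.44, 3.79, 3.29, 3.49 and 3.43 after ConA, 122-fold higher (adjusted p = 6.58e-15). Mmp8, the collagenase of neutrophils, rose at least 26.2-fold (adjusted p = 1.77e-12) and Adamts4, a proteoglycan protease, at least 39.6-fold (adjusted p = 8.43e-12). Col1a2, a chain of type I collagen, was 1.62-fold lower (adjusted p = 0.00184), a call lost in the slide-blocked fit (adjusted p = 0.215) and with the series matrix values. Fibronectin Fn1 was not called, at 0.28 ± 0.12 (adjusted p = 0.05002).

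Cell death genes rose in 21 of 27 and fell in 1. Mlkl, the pore former of necroptosis, read 0.01, 0.08, 0.18, -0.09 and 0.23 in the untreated livers and 2.67, 2.64, 2.77, 3.15 and 2.87 after ConA, 6.69-fold higher (adjusted p = 1.09e-11). Casp4, the inflammatory caspase that senses lipopolysaccharide, rose 9.55-fold (adjusted p = 6.80e-11), and Tnfrsf10b, a death receptor, 7.58-fold (adjusted p = 1.52e-12). Casp8, the initiator of death receptor signals, was not called, at 0.06 ± 0.14 (adjusted p = 0.718).

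Targets of p53 rose in 15 of 21 and fell in 5. Phlda3, an inhibitor of the kinase AKT, read -0.68, -0.53, -0.57, -0.83 and -0.79 in the untreated livers, -3.35, -3.46, -3.79, -3.56 and -3.73 at 3 hr and 2.71, 2.82, 3.05, 3.19 and 2.74 at 24 hr. Its log2 difference from untreated was -2.90 at 3 hr and 3.58 ± 0.20 at 24 hr (adjusted p = 3.57e-13), with no overlap among the 3 groups. Btg2 and Gadd45b, brakes on proliferation, rose 9.60-fold and 10.99-fold (adjusted p = 3.03e-10 and 3.29e-10). Sesn1, a sestrin that limits oxidant damage, was 2.71-fold lower (adjusted p = 6.64e-08), so the group did not move as one.

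Stress genes of the endoplasmic reticulum and of amino acid shortage rose in 20 of 30 and fell in 4, or in 2 in the slide-blocked fit. Atf3, a transcription factor of acute stress, rose 32.1-fold (adjusted p = 2.31e-11). Asns, which makes asparagine, read -1.64, -1.42, -1.75, -2.26 and -1.71 in the untreated livers and 2.45, 2.19, 2.03, 1.82 and 2.43 after ConA, 15.3-fold higher (adjusted p = 7.97e-11). Derl3, a factor of protein disposal, rose 16.7-fold (adjusted p = 1.06e-06), and the untreated livers spread from -2.11 to 0.40. Edem1, another disposal factor, was 2.21-fold lower (adjusted p = 3.89e-09), and the stress sensor Atf6 1.91-fold lower (adjusted p = 2.94e-06).

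Hepatocyte transcription factor genes fell in 27 of 32 and rose in 3, with 16 lower when the slide was a block. Srebf1, the master regulator of fatty acid synthesis, read 1.48, 3.10, 2.82, 3.11 and 2.63 in the untreated livers and -0.98, -0.57, -0.56, -1.40 and -1.28 after ConA, 12-fold lower (adjusted p = 1.12e-09). Mlxipl, the glucose-sensing factor ChREBP, was 4.45-fold lower (adjusted p = 1.93e-11) and the oestrogen receptor Esr1 2.89-fold lower (adjusted p = 1.99e-07). The acute phase factors Cebpd and Cebpb rose 5.61-fold and 1.997-fold (adjusted p = 3.24e-11 and 9.64e-06).

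Cytochrome P450 genes, whose enzymes oxidise drugs, steroids and fatty acids, fell in 37 of 47 and rose in 2, or in 5 with the series matrix values. Their median of -2.68 was the lowest of the groups described, and it was -2.73 to -2.13 in the single ConA livers. Cyp1a2, a pericentral enzyme of caffeine breakdown, read 3.62, 4.13, 3.83, 3.72 and 3.84 in the untreated livers and -1.34, -0.43, -0.34, -0.23 and -0.64 after ConA, 21.5-fold lower (adjusted p = 1.39e-12). Cyp2c50, which oxidises fatty acids, read 8.41, 8.28, 7.97, 8.13 and 8.41 in the untreated livers and 3.10, 4.27, 4.12, 3.83 and 4.07 after ConA, 20.6-fold lower (adjusted p = 3.30e-13). At 3 hr Cyp1a2 and Cyp2c50 stood at -0.38 and 0.04 from untreated, and the 24 hr level less the 3 hr level was -4.05 and -4.40 (adjusted p = 6.33e-12 and 2.95e-13). Cyp4f18, a P450 of leukocytes, rose 2.97-fold (adjusted p = 3.07e-11), and Cyp17a1 of steroid synthesis was not called, at -0.45 ± 0.21 (adjusted p = 0.0539).

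Promoters of P450 genes were searched for a site of HNF4A, the nuclear receptor that sustains hepatocyte identity. The site was searched as CAAAGTCCA on both strands, and 5 of 36 P450 genes with an entry held it, against 0.524% of tested genes and 0.384% of all promoters. Other groups that mostly fell rarely held it: 0 of 35 conjugating enzyme, 1 of 37 hepatocyte transporter and 0 of 35 coagulation and complement genes. The promoters of Cyp3a11, a main drug-oxidising enzyme, and of its neighbour Cyp3a16 are shown because they share the site at a like position. Both belong to the Cyp3a family and their sequences are alike, so the matches are not independent. The capitals mark it.
Cyp3a11, chr5:145879894-145879993 (minus strand): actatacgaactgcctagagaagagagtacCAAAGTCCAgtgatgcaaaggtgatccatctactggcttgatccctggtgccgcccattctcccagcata
Cyp3a16, chr5:145469753-145469852 (minus strand): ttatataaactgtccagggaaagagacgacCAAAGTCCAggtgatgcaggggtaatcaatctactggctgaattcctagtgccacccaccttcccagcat

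The site stood 109 and 99 bases before the starts. Cyp3a11 read 8.39, 8.28, 8.01, 8.42 and 8.23 in the untreated livers and 3.92, 4.15, 4.58, 5.90 and 5.05 after ConA, 11.7-fold lower (adjusted p = 1.17e-10). Cyp3a16 was 9.67-fold lower (adjusted p = 2.10e-06), with a wide range of 2.00 to 5.24 among the ConA livers.

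Conjugating enzymes, which add polar groups to drugs and hormones, fell in 35 of 41 genes and rose in 3. Ugt2b1, a glucuronosyltransferase, read 3.94, 4.03, 3.88, 4.07 and 3.92 in the untreated livers and -1.14, -0.55, -0.58, -0.02 and -0.61 after ConA, 23.4-fold lower (adjusted p = 5.45e-15). The sulfotransferase Sult2a8 was 19.2-fold lower (adjusted p = 6.08e-13). Gsta1, a glutathione transferase, went against the group. It read 0.93, 2.52, 2.16, 1.92 and 1.68 in the untreated livers and 4.82, 4.62, 5.01, 4.72 and 5.32 after ConA, 8.32-fold higher (adjusted p = 1.08e-06). Sult1e1, which inactivates oestrogen, also rose, 6.90-fold (adjusted p = 0.000191).

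Transporters of the hepatocyte membrane fell in 40 of 47 genes and rose in 2, or in 4 with the series matrix values. Slco1a4, a carrier of bile salts and drugs, read 2.49, 2.67, 2.50, 2.50 and 2.52 in the untreated livers and -2.33, -2.12, -1.92, -1.73 and -1.03 after ConA, 20.6-fold lower (adjusted p = 3.72e-14). Slc2a2, the glucose carrier of hepatocytes, was 12.5-fold lower (adjusted p = 1.01e-12) and Slc22a7, an anion carrier, 14.5-fold lower (adjusted p = 1.74e-11). All 10 major urinary protein genes fell, Mup5 by 7.55-fold (adjusted p = 1.14e-09), though members of this family are so alike that probes may read several. Carboxylesterases fell in 13 of 15 genes and hydroxysteroid dehydrogenases in 15 of 17, with Ces1e 21.3-fold and Hsd3b3 22.5-fold lower (adjusted p = 2.42e-13 and 6.32e-11). The Ces1, Hsd3b, Gsta, Sult2a, Serpina3 and Hamp genes likewise have close copies, so values of their members are uncertain as to which copy was read.

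Coagulation and complement genes fell in 31 of 45 and rose in 4, with a median of -0.94. The number that rose was 12 with quantile normalization, 12 with the series matrix values and 2 without untreated replicate 4. Klkb1, plasma prekallikrein, read 5.85, 5.67, 5.62, 5.71 and 5.72 in the untreated livers and 2.15, 3.41, 2.93, 2.15 and 2.89 after ConA, 8.04-fold lower (adjusted p = 1.72e-11). C8g, a chain of the membrane attack complex, was 6.04-fold lower (adjusted p = 3.57e-13). The fibrinogen chain Fga rose 1.86-fold (adjusted p = 3.82e-07) and the clotting factor F11 1.88-fold (adjusted p = 3.77e-05). Serine protease inhibitors were split, 19 higher and 11 lower of 44: the acute phase inhibitor Serpina3n rose 12.6-fold (adjusted p = 1.14e-15) and Serpina6, the carrier of corticosterone, was 31.1-fold lower (adjusted p = 4.20e-13).

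Lipoprotein and lipid export genes fell in 24 of 29. Angptl4, an inhibitor of lipoprotein lipase, was 2.25-fold higher (adjusted p = 0.00102). Lipc, hepatic lipase, was 5.28-fold lower (adjusted p = 7.25e-13). Acyl-CoA synthetases and thioesterases fell in 18 of 24, and Acss2, which makes acetyl-CoA from acetate, 17.9-fold (adjusted p = 8.21e-10). Acot9, a mitochondrial thioesterase, rose 3.33-fold (adjusted p = 1.05e-08).

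In the growth hormone axis 14 of 22 genes fell and 4 rose. The receptor Ghr read 5.60, 5.84, 5.81, 5.76 and 5.88 in the untreated livers and 2.52, 3.11, 3.24, 2.84 and 2.91 after ConA, 7.21-fold lower (adjusted p = 3.81e-14). Igfals, which holds insulin-like growth factors in plasma, was 13.6-fold lower (adjusted p = 5.87e-11). Cux2, a factor of female liver, was above background in all untreated livers and in none after ConA, at least 8.53-fold lower (adjusted p = 4.19e-08), and the untreated livers spread from -3.17 to -0.07.

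Genes of the respiratory chain and ATP synthase, which make most cellular ATP, moved almost as one: 78 of 82 fell and 4 rose (1 in the slide-blocked fit), against 39.1% and 29.8% of all genes. The median was -1.22, and it stood at -0.80 with quantile normalization and -0.88 with the authors' series matrix values. Cyc1 of complex III read 6.55, 6.86, 6.67, 6.74 and 6.64 in the untreated livers and 4.68, 4.70, 4.84, 4.62 and 5.00 after ConA, 3.79-fold lower (adjusted p = 1.03e-11). Sdhb of complex II was 3.77-fold lower (adjusted p = 1.03e-11) and Uqcr11 of complex III 3.60-fold lower (adjusted p = 4.31e-11). Ndufa4l2, a subunit relative that is induced in low oxygen, was the clear exception: it read -0.52, -0.67, -0.30, -0.62 and -0.57 in the untreated livers and 3.18, 2.72, 2.49, 2.38 and 2.72 after ConA, 9.39-fold higher (adjusted p = 5.94e-12). At 3 hr it stood -0.97 from untreated. The other 3 that rose are isoforms of subunits.

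By contrast, cytosolic ribosomal protein genes had no settled direction. Of 75 genes 8 were higher and 10 lower, but 65 were higher and 2 lower with quantile normalization, and 62 and 1 with the series matrix values. Constitutive proteasome genes were lower in 17 of 34 and higher in none, or lower in 8 and higher in 14 with quantile normalization and lower in 9 in the slide-blocked fit. Psmd11, a subunit of the lid, was 1.76-fold lower (adjusted p = 3.65e-07), a small change beside those of the immunoproteasome.

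Tryptophan and NAD genes moved in both directions. Of 21 genes 6 rose and 13 fell. Ido1, the interferon-induced first enzyme of the kynurenine route, was not well above background in any untreated liver and read -0.81, 1.08, 0.83, -0.69 and -1.40 after ConA, at least 22.5-fold higher (adjusted p = 7.14e-10). It was not well above background in any 3 hr liver either. Later enzymes of the route fell: Afmid 27.1-fold, Kynu 5.83-fold and Haao 7.002-fold (adjusted p = 1.27e-14, 1.01e-11 and 2.04e-13).

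Arginine, nitric oxide and oxidant genes moved in both directions as well, 13 of 21 higher and 8 lower. Nos2, the inducible nitric oxide synthase, read -0.22, -0.46, -0.37, -0.31 and -0.13 in the untreated livers and 3.89, 3.89, 2.99, 3.94 and 2.79 after ConA, 13.9-fold higher (adjusted p = 2.25e-10). Arg2, the mitochondrial arginase, rose at least 8.36-fold (adjusted p = 1.33e-10) and the arginine carrier Slc7a1 7.95-fold (adjusted p = 8.43e-12). Acod1, which makes itaconate in macrophages, rose 166-fold (adjusted p = 3.81e-14), above background in 3 untreated livers. Enzymes of the urea cycle fell, Otc 9.66-fold and Ass1 7.98-fold (adjusted p = 2.11e-14 and 2.05e-13).

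Of 23 iron genes 8 (34.8%) were higher and 10 (43.5%) lower, and of 27 antioxidant genes 9 (33.3%) and 12 (44.4%), shares near the 29.8% and 39.1% of all genes. Hamp2, a hepcidin copy, read 7.60, 8.80, 8.86, 8.52 and 8.32 in the untreated livers and 3.20, 3.42, 3.81, 3.77 and 3.28 after ConA, 30.3-fold lower (adjusted p = 2.83e-11). Slc40a1, the iron exporter ferroportin, was 3.15-fold lower (adjusted p = 3.23e-09), and Slc39a14, an iron and zinc importer, 2.59-fold higher (adjusted p = 6.45e-09). The metal binders Mt1 and Mt2 rose 2.87-fold and 4.88-fold (adjusted p = 1.41e-09 and 2.30e-09). The glutathione peroxidase Gpx1 was 4.16-fold lower (adjusted p = 1.36e-11).

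Cell cycle and DNA replication genes rose in 37 of 47 and fell in 2, with a median of 1.84, or 1.70 with bounds and 0.79 with normexp. Plk1, a mitotic kinase, read -2.39, -2.94, -2.83, -3.21 and -2.56 in the untreated livers and 0.89, 0.57, 0.35, -0.19 and 0.25 after ConA. All 5 ConA livers were higher, by 8.94-fold (log2 3.16 ± 0.28, adjusted p = 5.97e-10), whereas at 3 hr Plk1 stood 0.02 from untreated. Top2a, which untangles DNA, rose 11.5-fold (adjusted p = 8.33e-09), above background in 2 untreated livers. Bub1, a checkpoint kinase, rose at least 3.30-fold (adjusted p = 2.04e-13). The G1 cyclin Ccnd1 was not called, at -0.68 ± 0.42 (adjusted p = 0.150).

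The promoters of Ccnb1, the cyclin that starts mitosis, and of Bub1 are shown because each holds a pair of CCAAT boxes, the site of NF-Y. The box was searched as CCAAT on both strands, and 27 of 38 cell cycle genes with an entry held it, against 39.7% of tested genes and 33.8% of all promoters. It was not particular to this group, and groups that mostly fell varied. It was held by 8 of 11 carboxylesterase genes, 15 of 21 acyl-CoA synthetase and thioesterase genes and 7 of 35 coagulation and complement genes. The capitals mark the boxes.
Ccnb1, chr13:100786516-100786615 (minus strand): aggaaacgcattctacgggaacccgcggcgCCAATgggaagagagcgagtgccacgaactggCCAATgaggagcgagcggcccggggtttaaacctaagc
Bub1, chr2:127831860-127831959 (minus strand): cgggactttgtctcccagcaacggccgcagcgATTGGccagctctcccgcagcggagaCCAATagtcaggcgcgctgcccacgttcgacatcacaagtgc

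The boxes stood 99 and 67 bases before the start of Ccnb1, and 68 and 42 before that of Bub1. Ccnb1 read -3.72, -3.61, -5.05, -5.03 and -4.44 in the untreated livers, above background in 2, and -1.39, -1.44, -1.96, -2.12 and -1.97 after ConA, 6.05-fold higher (adjusted p = 4.17e-06).

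Growth factor and receptor genes of regeneration rose in 14 of 29 and fell in 9. By fitted values, the 4 largest increases were those of the ligands Il11, Il6, Areg and Ereg. The 4 largest decreases were those of Lifr, Klb, Fgfr4 and the ligand Bmp4, so ligands moved both ways. The receptor Egfr, in the growth hormone list, was higher. Il11, a cytokine of the interleukin-6 family, read -4.31, -4.66, -4.20, -3.98 and -5.22 in the untreated livers and 0.91, 1.65, 1.07, 1.10 and 0.83 after ConA, 47.95-fold higher (adjusted p = 9.10e-13). The epidermal growth factor receptor ligands Areg and Ereg rose, Areg at least 8.71-fold and Ereg 15.4-fold (adjusted p = 2.41e-10 and 1.44e-09). Among receptors, Lifr was 6.27-fold lower and Klb, the co-receptor of fibroblast growth factors, 5.95-fold lower (adjusted p = 2.35e-09 and 4.08e-10).

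Clock genes gave 6 (31.6%) higher and 9 (47.4%) lower of 19, against 29.8% and 39.1% of all genes, with a median of -0.35. The number lower was 2 in the slide-blocked fit and 5 with the series matrix values. Ciart, a repressor of the clock, was at least 5.38-fold higher (adjusted p = 2.65e-07). The hour of collection is not given in the labels, and its part in these values was not tested. In the prostanoid pathway, on which the study's agonist acts, 8 of 23 genes (34.8%) rose and 11 (47.8%) fell, with a median of -0.47. These shares too stand against 29.8% and 39.1% of all genes. The number that fell was 5 in the slide-blocked fit and 6 with the series matrix values. Ptgs2, the inducible cyclooxygenase, was not well above background in any untreated liver and read 0.02, -0.21, -1.23, -0.34 and -1.13 after ConA, at least 17.3-fold higher (adjusted p = 3.46e-10). Ptgis and Ptgir, the synthase and receptor of prostacyclin, rose 4.34-fold and 5.21-fold (adjusted p = 4.09e-09 and 2.73e-08). Ptgs1, the constitutive cyclooxygenase, and Hpgd, which degrades prostaglandins, were 2.52-fold and 3.14-fold lower (adjusted p = 2.48e-07 and 3.34e-11). Ptgds, which makes prostaglandin D2, was 3.17-fold lower (adjusted p = 0.00204), a call lost in the slide-blocked fit (adjusted p = 0.375). The other synthase Hpgds and the receptors Ptgdr and Ptgdr2 did not pass the filter on dim probes.

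**Figure D3:**
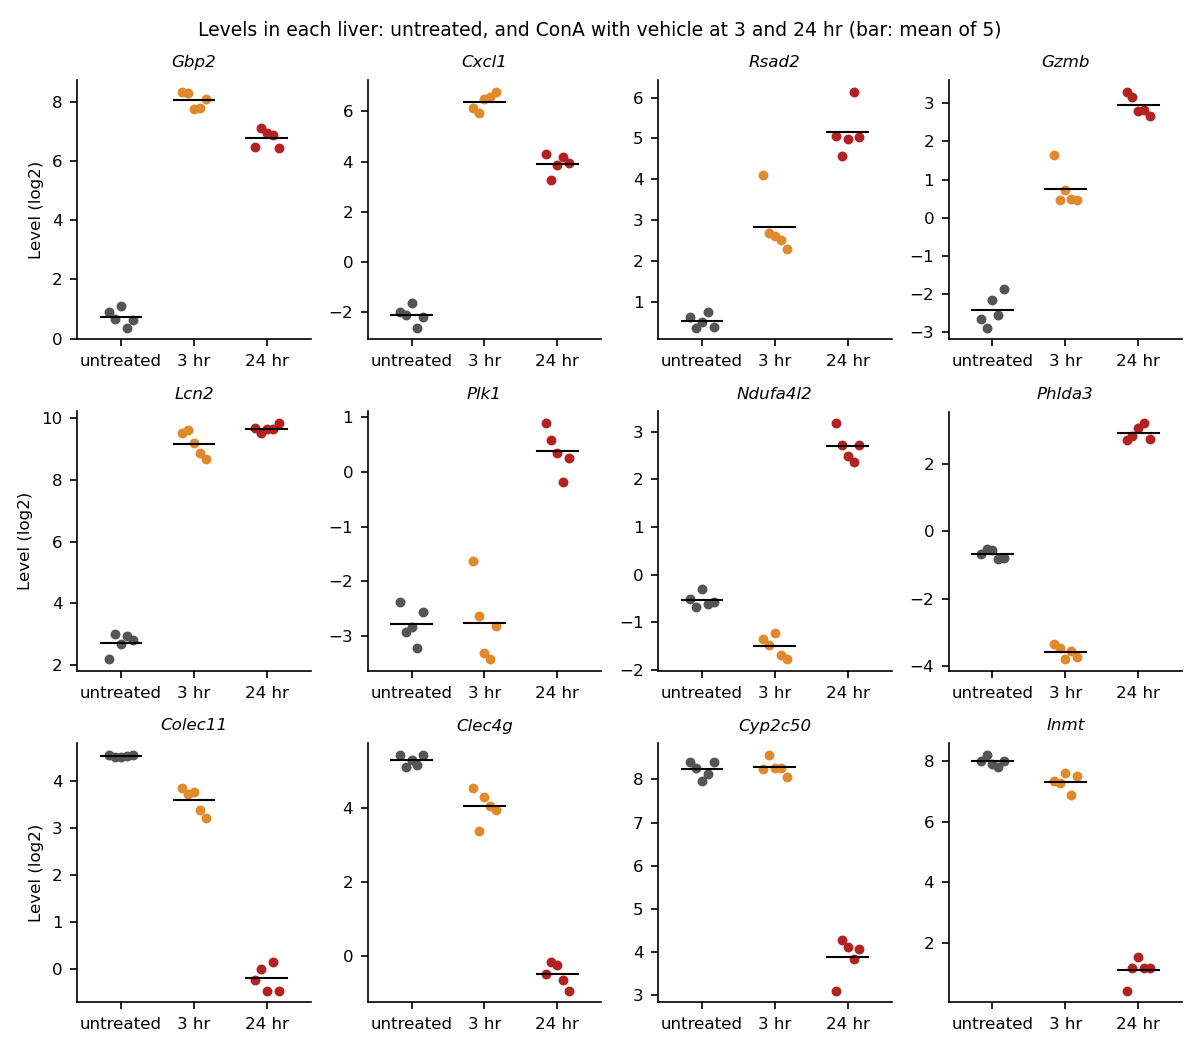
Levels (y axis, log2 of signal relative to the array's 75th percentile) of 12 genes in each of 5 untreated, 5 ConA with vehicle 3 hr and 5 ConA with vehicle 24 hr livers, 1 point per liver with the group mean as a bar. Gbp2 and Cxcl1 are highest at 3 hr, Rsad2, Gzmb and Plk1 at 24 hr, and Cyp2c50, Clec4g and Inmt are lowest at 24 hr.

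Timing was tested as the difference between the 24 hr and 3 hr vehicle livers themselves. Of the genes higher at 24 hr, 2562 (17% of those tested) had risen above their 3 hr level and 650 (4.30%) had dropped below it. Of the genes lower at 24 hr, 3624 (24.0%) were lower than at 3 hr and 923 (6.11%) higher. The 3 hr and 24 hr values against untreated share the same controls, so they are given side by side only.

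Late increases included Mmp3, stromelysin of stromal cells, which was not well above background in any untreated liver and read -5.31, -6.13, -5.81, -6.14 and -6.39 at 3 hr and -0.75, -1.28, -0.25, -0.72 and -0.30 at 24 hr. It was at least 16.3-fold above untreated (adjusted p = 8.46e-13). Gpnmb, a glycoprotein of lysosome-rich macrophages, read -5.91, -4.40, -5.30, -5.60 and -5.67 in the untreated livers, -6.80, -5.79, -6.75, -5.03 and -6.69 at 3 hr and -0.88, -1.21, -0.74, -0.71 and -1.29 at 24 hr. Apln, the vascular peptide apelin, rose at least 11.8-fold (adjusted p = 4.47e-10), Gtse1 of the G2 and S phases at least 11.97-fold (adjusted p = 2.10e-10), and Gml at least 29.5-fold (adjusted p = 4.23e-12). Apln, Gtse1 and Gml were not well above background in any untreated or 3 hr liver and well above it in all 24 hr livers. These genes could thus pass the filter on dim probes through the livers where they were high.

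Late decreases included enzymes and secreted proteins of hepatocytes. Car3, a carbonic anhydrase, read 7.89, 8.83, 8.43, 8.86 and 8.85 in the untreated livers, 7.92, 8.12, 8.33, 7.42 and 7.88 at 3 hr and 1.22, 2.74, 2.43, 3.40 and 3.10 at 24 hr, so that the untreated and 3 hr livers overlapped and the 24 hr livers stood apart. Serpina6 stood at 0.54 from untreated at 3 hr and -4.96 at 24 hr. Ces1f, a lipid droplet esterase, was 33.4-fold lower (adjusted p = 5.93e-12) and Sult2a7, a sulfotransferase, 40.7-fold lower (adjusted p = 2.88e-08).

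Fading increases included targets and regulators of NF-kappaB. Tnfaip3, the ubiquitin editor A20 that shuts the pathway off, read -0.64, -0.91, -0.68, -0.82 and -0.82 in the untreated livers, 6.26, 6.11, 6.29, 6.69 and 6.75 at 3 hr and 2.63, 2.33, 2.15, 2.69 and 1.72 at 24 hr. It was still 8.43-fold above untreated (adjusted p = 2.08e-12), and 17.4-fold below its 3 hr level (adjusted p = 3.94e-14). Tlr2, a receptor of bacterial lipoproteins, Ripk2, a kinase of NOD signalling, and Sele, the adhesion molecule E-selectin, had dropped from 3 hr by 19.9-fold, 26.5-fold and 23.03-fold (adjusted p = 4.03e-13, 4.12e-14 and 1.48e-10). Fading decreases were led by Sox18, an endothelial transcription factor, which stood at -6.20 from untreated at 3 hr and -1.01 at 24 hr (adjusted p = 2.39e-14 for the difference). G6pc, the glucose 6-phosphatase, read 6.36, 7.25, 6.98, 7.49 and 7.06 in the untreated livers, -1.69, -1.73, -0.95, -1.55 and -0.93 at 3 hr and 3.60, 3.01, 2.69, 3.13 and 4.20 at 24 hr. Nr0b2, the bile acid sensor's partner SHP, stood at -4.36 and -1.27. The 24 hr calls of Sox18 and Nr0b2 against untreated were lost in the slide-blocked fit (adjusted p = 0.0726 and 0.259).

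**Figure D4:**
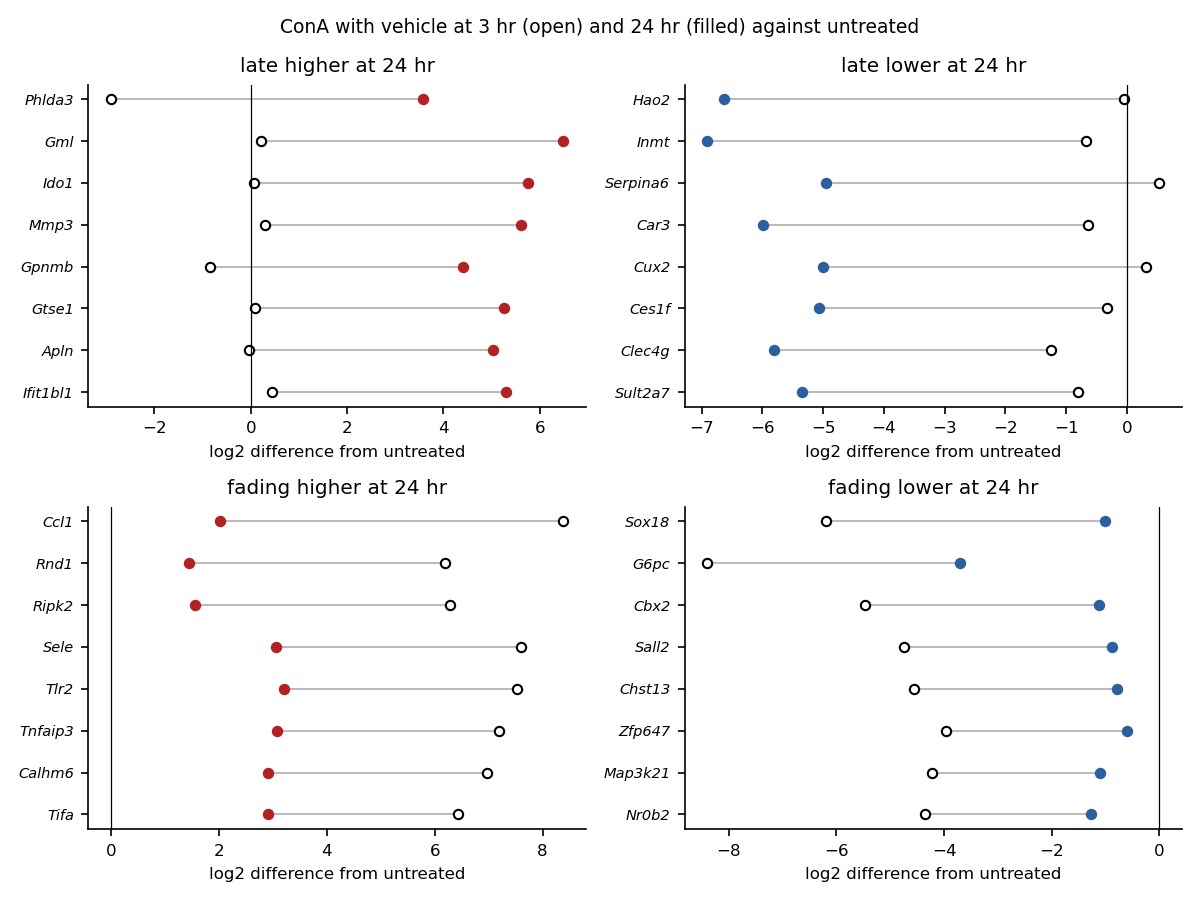
Log2 difference from untreated (x axis) at 3 hr (open circles) and 24 hr (filled circles) after ConA with vehicle for the 32 genes with the largest difference between those times, 8 in each of 4 classes, with lines that join the values of a gene. Phlda3 goes from -2.90 to 3.58 and G6pc from -8.40 to -3.70.

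The 5 ConA livers were alike for most genes but not for all. The genes with the largest spread among them included members of the Cyp3a family with a female bias. Cyp3a44 read 3.02, 1.84, 3.03, 3.72 and 1.96 in the untreated livers and -2.32, -3.75, -4.39, 3.07 and -2.89 after ConA. Replicate 4 was at the untreated level while the other 4 lay far below it, and the probes of Cyp3a44, Cyp3a41b and Cyp3a16 may read each other. Cyp3a41b read 4.27, 4.02, 4.72, 5.71 and 4.06 in the untreated livers and 1.23, -0.06, -0.28, 4.61 and 0.54 after ConA, with the same liver highest. Without replicate 4 the change was -6.05 for Cyp3a44 and -4.20 for Cyp3a41b, against -4.77 ± 1.03 and -3.35 ± 0.77 with it. Hao2, an oxidase of peroxisomes, read -5.28, -6.44, -6.16, -2.28 and -5.56 in the ConA livers, against 0.90 to 2.11 in the untreated, and replicate 4 was again the highest of the 5 and the only one above background. Its change was -6.64, or -7.36 without replicate 4. Cyp7a1, the rate-limiting enzyme of bile acid synthesis, went the other way in that liver: it read -5.35, -3.49, -3.35, -6.91 and -3.67 in the ConA livers, above background in 3, and its change was -8.03, or -7.45 without replicate 4.

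Other genes spread in other ways. Cidec, a lipid droplet protein, read -0.87, -1.63, 0.23, 2.10 and 1.65 after ConA and -2.78, -2.36, -2.50, -3.04 and -2.89 in the untreated livers, with replicate 2 lowest and replicates 4 and 5 highest. All 5 were above the untreated livers, by 8.06-fold (adjusted p = 2.87e-05). Reg3g, an antibacterial lectin, was not well above background in any untreated liver and ranged over -2.43 to 0.36 after ConA, at least 13.3-fold higher (adjusted p = 3.67e-07). Nox4, an oxidase that makes hydrogen peroxide, ranged over -4.44 to -1.61 and was 8.05-fold lower by its brighter probe (adjusted p = 6.56e-07). Retnla, a resistin-like protein of macrophages, ranged over -3.13 to 0.35 and was not called, at 1.10 ± 0.65 (adjusted p = 0.133).

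**Figure D5:**
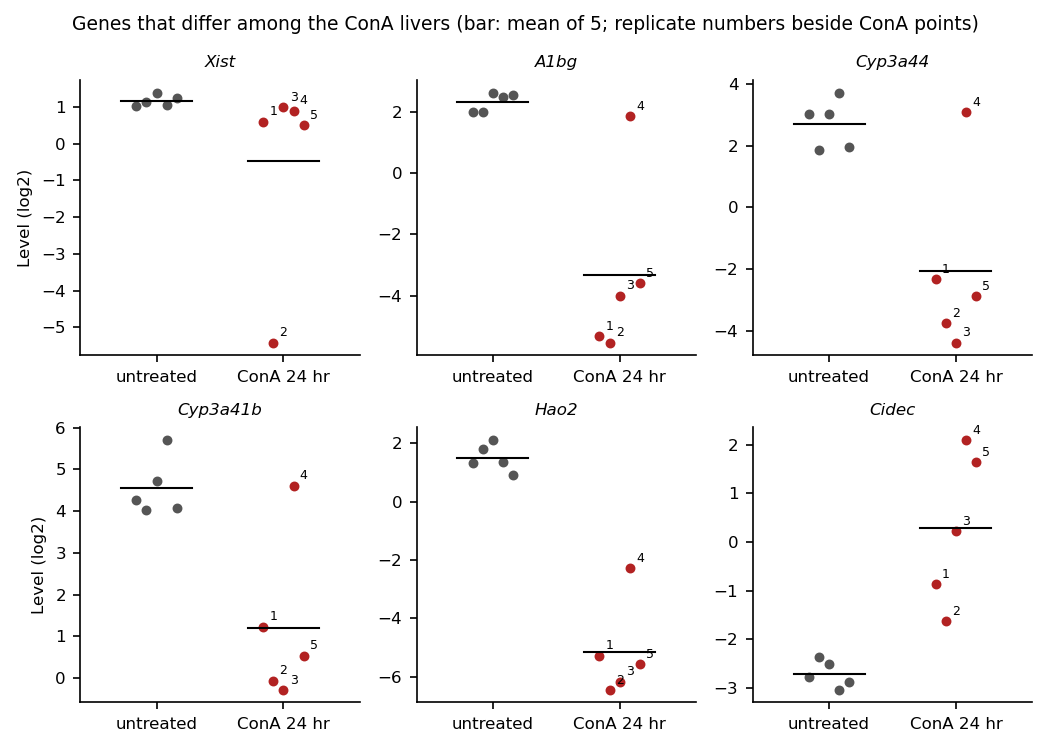
Levels (y axis, log2 of signal relative to the array's 75th percentile) of 6 genes in each untreated and each ConA with vehicle 24 hr liver, with the replicate number beside each ConA point. Replicate 4 is the highest ConA liver for A1bg, Cyp3a44, Cyp3a41b and Hao2, and replicate 2 is low for Xist.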

How the data were processed

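RNA of 25 mouse livers was measured on 1-colour Agilent arrays with Cy3, in 5 groups of 5 mice. Per the file headers, the authors' scanner output was made with Feature Extraction 10.7.3.1 on a design annotated to mm9, and the submitters' processing notes list Agilent Feature Extraction 9.1. The deposited values are intensities: the processed signal of each spot, and a series matrix that holds the same signal times about 1 factor per array, by a rule not given in the sources used here.

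From these, log2 processed signal less that of the array's 75th percentile over non-control spots was computed. Outlier spots were left out, spots of a probe were averaged, and the few values left missing were filled with the group mean (2 among the tested genes of both groups). Of 55681 probes, 26582 had a symbol in the RefSeq gene table of GRCm38.p6. Kept were probes that 5 or more of 25 arrays showed well above background, and the brightest probe stood for its gene. With limma 3.58.1 (R 4.3.3), one mean per group was fitted to the 25 arrays together, so all groups share the estimate of spread, and p-values were adjusted by Benjamini-Hochberg over 15104 genes. Errors after ± are standard errors of the log2 difference unless said otherwise. On simulated data with 200 changed genes among 15104, the same fit for this comparison called 84% of 2-fold and 99% of 4-fold changes, with 14 false calls. The 10406 genes called in the livers are far more than 200, and recovery and false calls with that many changed genes were not tested. Correlations between arrays of a group were 0.990 to 0.996, and no pair of arrays was identical. The number of arrays limits the precision.

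Named genes are the 12 largest changes each way, up to 4 called genes each way and up to 2 not called per gene list, the 8 largest of each timing class, the 10 with the largest spread among the ConA livers and the prostaglandin D2 genes, of which the text gives a selection; a few others are not reported here. Gbp3, Igtp, Cxcl1, Ccnb1 and Cyp3a11 (promoters shown), Xist, the Y-linked genes and the cell markers lie outside this rule and were chosen after values were seen. The members and lists were chosen with earlier results of these data known. Alternatives in background correction, scaling, filters, slide, replicate number, variance model, probe summary and thresholds were tried, and each of the 10 arrays was left out in turn. The replicate numbers did not pair the mice: 4 of 25 arrays correlated best with an array of their own number, with a median correlation of -0.01 between same-numbered arrays.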

Additional observations from a re-analysis of the deposited data

Results flagged for a closer look

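Of 386 groups of 5 livers checked (2 groups for each of 193 named genes), 25 held a liver whose gap to its nearest neighbour was over 0.71 of the group's range, where chance flags about 1 in 20. Of these, 15 were in the ConA livers and 10 in the untreated. In ConA replicate 4 the highest liver stood apart for A1bg (1.84), Cyp3a44 (3.07), Cyp3a16 (5.24), Hao2 (-2.28), Cd14 (5.99), Oasl2 (5.47) and Tnfrsf10b (0.78). In ConA replicate 5 the lowest liver stood apart for Casp4 (2.29), Pecam1 (-1.13), Tap1 (2.25) and Tgtp1 (0.69), and it was highest for Uqcr11 (5.84). ConA replicate 2 was lowest for Xist (-5.42) and highest for Cyp4f18 (1.54), and ConA replicate 1 was lowest for Kynu (-0.23). Untreated replicate 1 was lowest for Edem1 (3.55) and Slc2a2 (5.20) and highest for Ptgis (-0.20). Untreated replicate 2 was lowest for Cd3d (-3.00) and Oit3 (2.31) and highest for Gtse1 (-4.81), Slco1a4 (2.67) and Uqcr11 (7.50). Untreated replicate 5 was highest for Il1r2 (-5.59) and Ptgs2 (-6.34), both not well above background in untreated livers.

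Among the named genes, 5 were called in opposite directions at 3 hr and 24 hr against the shared untreated livers, with a call for the direct difference. The 24 hr level less the 3 hr level was 6.48 for Phlda3, 4.20 for Ndufa4l2, 2.54 for Itgb3, -1.31 for Atf6 and -2.76 for Alas2.

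Of the 13877 probes kept that had no gene name here, 7357 were called between ConA with vehicle at 24 hr and untreated livers when fitted alike, 4482 higher and 2875 lower.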

How the results depend on the processing

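Of 181 called genes named in the text, 170 kept their call under every alternative in which they were tested, and all kept their direction. Only 140 of the 181 were tested when a probe had to be above background on every array. Called genes were named mostly for the size of their change, so their stability does not speak for all 10406 calls. The count of all genes called ranged from 9951 to 10188 when single arrays were left out, and was 10296 with the replicate number as a block, which changed no call of a named gene. It was 10489 with quantile normalization, 11032 with the series matrix values, 8761 when a probe had to be above background on every array, 7701 with the slide as a fixed block, 9019 with it as a random block, 11464 over the 10 arrays alone and 11847 with array weights. With the slide as a fixed block, 392 higher and 297 lower genes faded in place of 650 and 923. With the series matrix values, 7249 genes were higher and 3783 lower, and 5332 late higher and 1930 late lower, as the shift of the median of all genes moves calls from lower to higher. With normexp background correction, 2728 genes were called and at least 2-fold, against 4337 (2080 higher and 2257 lower). That correction adds an offset of 50, which shrinks the folds of dim genes, and 63 of the 181 named genes moved by over 1.5 times, Slfn4 from a fitted 9.07 to 4.70, though only a bound holds for it.

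The slide as a block moved 23 named genes by over 1.5 times, Nr0b2 (-0.67) and Ptgds (-0.95) with a lost call. The changes fell in size to -3.40 for Clec4f, -3.98 for Vsig4, -2.94 for Slc22a7, -3.99 for Sult2a7, -3.65 for Sult2a8, -1.79 for Lipc, -2.17 for Nox4, -0.71 for Ptgs1, -2.28 for Wnt2, 4.36 for Areg, 3.81 for Gpnmb and 3.55 for Reg3g. They grew to 9.48 for AA467197, 4.11 for Cd3d, 3.89 for Ndufa4l2, 2.31 for Angptl4, 3.51 for Sult1e1, -9.48 for Cyp7a1, -6.81 for A1bg, -3.93 for Cyp3a16 and -4.26 for Cyp3a41b. The cause was not tested. Signal over background limits the dim genes, which are given as bounds.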

Other observations

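In the ConA library labelled replicate 2, the other Xist probe read -6.82, and Ddx3x (2.04 against 2.40 to 2.85, and 3.51 against 3.81 to 4.12 by its other probe), Eif2s3x (0.02 against 0.55 to 0.94, and 0.48 against 1.14 to 1.31), Kdm6a (-1.96 against -1.32 to -0.93) and Kdm5c (2.85 against 3.09 to 3.28, and -1.46 against -1.19 to -1.04) were lower than in each of the other 4 ConA livers. The median of 492 X-linked genes there was -0.02 from the other 4 ConA livers, within the -0.04 to 0.05 seen in the other livers. The number of genes at least 4-fold above the other 4 livers was 9, 1, 3, 13 and 6 in ConA replicates 1 to 5, and 7, 9, 3, 10 and 9 genes were at least 4-fold below them.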
